A study of Mus musculus with 8 samples.

Results

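The 6 genes Prg4, Ctsw, Adgra1, Mab21l4, Lect2 and Aldh1l1 stood more than 5-fold higher after 8 h of TGFbeta in cells of both vectors and were grouped here as less known genes. They were picked for that rise out of 10 genes that exceeded it, among 19937 genes measured, so the rise itself is described here without a test. Each of the 6 was represented by 1 probeset whose single gene symbol was the gene. The cells were NMuMG, an epithelial line from mouse mammary gland that is widely used to study the epithelial-mesenchymal transition. Stable transfectants carried either a vector with major satellite sequences, the repeat of mouse pericentromeric heterochromatin (Major), or a control vector (Control). The 4 groups were Major with TGFbeta, Control with TGFbeta, Major untreated and Control untreated, with 2 arrays each. Total RNA was hybridised to Affymetrix gene arrays, and all values are log2 expression levels. All groups share the line and a stably integrated vector. The labels name no promoter for the satellite insert, no dose of TGFbeta and no clone or pool of transfectants, and they do not say whether the arrays of a group came from separate cultures. The p-values therefore measure only the spread between these arrays, which may be technical. The title of every array ends in 1 of 2 codes, and within a group each code stands on a single array, so arrays are called replicate number 1 or 2 after it.

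TGFbeta binds receptor serine/threonine kinases that activate the Smad transcription factors, which enter the nucleus with partners such as AP-1 and switch target genes on or off. In mammary epithelial cells this raises matrix, adhesion and cytoskeletal genes and slows proliferation. The 6 genes are not known to share a pathway. Prg4 encodes lubricin, a secreted mucin-like glycoprotein that lubricates joint surfaces and binds the hyaluronan receptor Cd44. Lect2 encodes a secreted chemotactic factor made mainly by the liver, which binds the receptors Met and Tie1. Ctsw encodes cathepsin W, a papain-type cysteine protease known from cytotoxic lymphocytes, and Aldh1l1 a folate enzyme that oxidises formyltetrahydrofolate and is widely used as an astrocyte marker. Adgra1, formerly Gpr123, encodes an adhesion G protein-coupled receptor known mainly from brain. Mab21l4 encodes a member of the Mab-21-like family, whose relatives include the DNA sensor Cgas, and its own function is little described.

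Promoter sequences of 4 of the genes, matched by symbol in RefSeq (GRCm38.p6), are shown because these genes were higher together under TGFbeta. Motifs were searched in the 250 bases before a transcript start of that table. The RefSeq gene table places the edge of each gene further out, so that the last 77 bases of this window in Adgra1, 25 in Aldh1l1, 21 in Lect2 and 8 in Mab21l4 lie inside the gene. Each run shows the part of the window before the gene, 5′ to 3′ on the strand of the gene, with matches to the searched motifs in capitals.
Adgra1 promoter, chr7:139833924-139834096, plus strand: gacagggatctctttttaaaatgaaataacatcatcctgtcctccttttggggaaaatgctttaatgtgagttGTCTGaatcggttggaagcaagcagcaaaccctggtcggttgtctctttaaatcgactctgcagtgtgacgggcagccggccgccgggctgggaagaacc
Mab21l4 promoter, chr1:93160957-93161198, minus strand: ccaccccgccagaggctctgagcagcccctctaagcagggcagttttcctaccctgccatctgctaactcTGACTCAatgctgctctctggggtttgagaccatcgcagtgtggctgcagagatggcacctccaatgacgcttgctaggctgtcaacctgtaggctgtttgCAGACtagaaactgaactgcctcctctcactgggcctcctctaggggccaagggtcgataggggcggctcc
Lect2 promoter, chr13:56548560-56548788, minus strand: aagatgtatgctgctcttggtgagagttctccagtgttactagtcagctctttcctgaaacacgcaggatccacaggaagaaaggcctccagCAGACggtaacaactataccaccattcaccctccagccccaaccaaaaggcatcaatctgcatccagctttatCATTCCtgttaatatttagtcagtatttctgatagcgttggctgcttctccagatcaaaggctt
Aldh1l1 promoter, chr6:90550543-90550767, plus strand: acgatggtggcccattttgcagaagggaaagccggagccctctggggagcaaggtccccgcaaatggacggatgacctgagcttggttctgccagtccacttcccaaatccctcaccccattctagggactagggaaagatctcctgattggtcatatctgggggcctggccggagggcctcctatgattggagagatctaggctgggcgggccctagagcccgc
The 6 motifs searched on both strands were CAGAC and GGCGC, which Smad proteins can bind, TGANTCA of AP-1, GGAATG of TEAD factors, TGTGGT of Runx factors and CAGGTG, an E-box bound by Snail and Zeb repressors. No matches of different motifs overlapped in these windows. CAGAC occurred in Adgra1 (bases 177 to 173 before the transcript start), Mab21l4 (79 to 75) and Lect2 (158 to 154), and in 42.2% of the 32851 promoter windows of the same length. The AP-1 motif occurred in Mab21l4 (180 to 174 before the start), against 6.75% of all windows. GGAATG was present in Lect2 (85 to 80) and, across the edge of the gene, in Adgra1 (78 to 73), against 12.6% of all windows. GGCGC occurred in Adgra1 at 46 to 42 and 30 to 26, both inside the gene, against 32.0% of all windows. TGTGGT and CAGGTG, held by 14.0% and 17.2% of all windows, were in none of these windows, and the Aldh1l1 window held no match to any of the 6. Mab21l4 has a further annotated start downstream, whose window held the same CAGAC at 157 to 153, another inside the gene at 77 to 73 and no AP-1 match.

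Prg4 showed the largest TGFbeta rise of any gene measured, in both vectors. Its level was 11.74 and 11.62 in Major TGFbeta arrays and 12.20 and 11.67 in Control TGFbeta arrays, against 7.27 and 6.56 in Major untreated and 7.67 and 6.17 in Control untreated arrays. The lowest TGFbeta array lay 3.95 log2 units above the highest untreated array, so the treatments did not overlap. On the group means this was a log2 rise of 4.76 ± 0.49 (27.1-fold) in Major cells and 5.02 ± 0.49 (32.4-fold) in Control cells (standard error of the limma fit, 2 arrays per group). Among all genes Prg4 ranked 1 in each of the 4 pairs of arrays that shared a vector and a replicate number. The untreated arrays spanned 1.49 log2 units and the TGFbeta arrays 0.59, so its level varied more between untreated arrays.

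Lect2, the other secreted factor, stood at 9.15 and 9.94 in Major TGFbeta arrays and 9.51 and 9.64 in Control TGFbeta arrays. Its untreated levels were 6.90 and 7.17 in Major arrays and 6.93 and 7.20 in Control arrays. The TGFbeta arrays lay at least 1.95 log2 units above the untreated ones, and the 2 Major TGFbeta arrays differed from each other by more than those of any other group. The log2 rise was 2.51 ± 0.27 in each vector (5.70-fold in Major, 5.69-fold in Control). Over single pairs it was widest apart in Major cells, at 2.78 in number 2 and 2.25 in number 1, and the lower of these is under 5-fold.

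The protease gene Ctsw stood at 11.21 and 11.59 in Major TGFbeta arrays and 11.20 and 11.64 in Control TGFbeta arrays, against 7.74 and 7.62 in Major untreated and 8.02 and 7.53 in Control untreated arrays. The treatments were separated by 3.18 log2 units, and within a treatment the 4 arrays spanned less than 0.5. Its log2 rise was 3.72 ± 0.24 (13.2-fold) in Major cells and 3.65 ± 0.24 (12.5-fold) in Control cells, rank 2 of all genes in each of the 4 pairs. The folate enzyme gene Aldh1l1 stood at 9.71 and 9.42 in Major TGFbeta arrays and 9.81 and 9.16 in Control TGFbeta arrays, against 7.00 and 6.71 in Major untreated and 7.29 and 6.90 in Control untreated arrays. In every group the array of number 1 was the higher. Its log2 rise was 2.71 ± 0.26 (6.53-fold) in Major cells and 2.39 ± 0.26 (5.25-fold) in Control cells, and its rank over the 4 pairs ran from 6 to 20.

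The receptor gene Adgra1 had levels of 11.33 and 11.60 in Major TGFbeta arrays and 11.41 and 11.96 in Control TGFbeta arrays. Its untreated levels were 8.37 and 8.48 in Major and 8.47 and 8.31 in Control arrays, a span of 0.17 over 4 arrays. The gap between the treatments was 2.85 log2 units, with a rise of 3.04 ± 0.20 (8.23-fold) in Major cells and 3.29 ± 0.20 (9.80-fold) in Control cells. Mab21l4 had levels of 13.26 and 13.00 in Major TGFbeta arrays and 13.25 and 12.99 in Control TGFbeta arrays, against 10.54 and 10.22 in Major untreated and 10.49 and 10.26 in Control untreated arrays. Its rise was the most even of the 6, between 2.73 and 2.79 log2 units in the 4 pairs, with 2.76 ± 0.18 (6.76-fold) in Major and 2.75 ± 0.18 (6.72-fold) in Control cells.

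**Figure D1:**
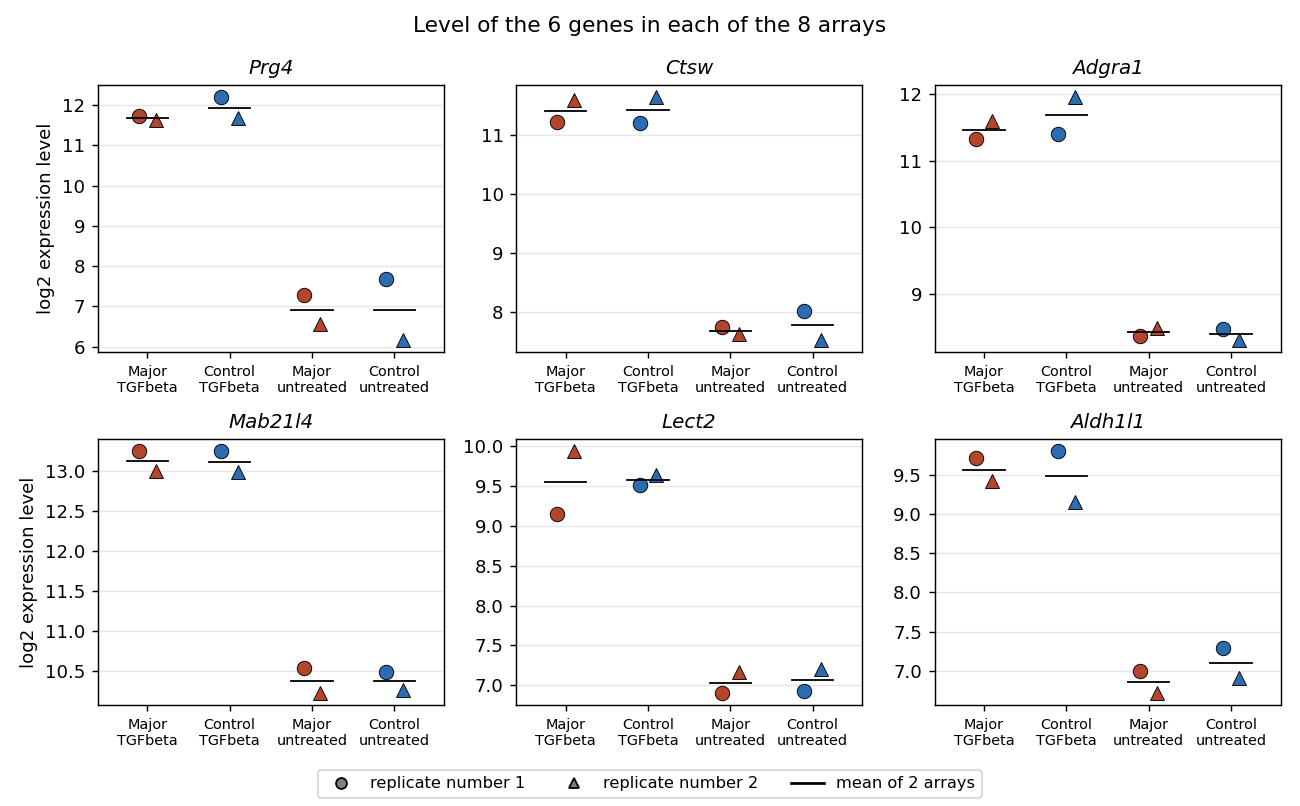
Log2 expression level of each gene (vertical axis, its own scale per panel) in the 8 arrays, by group. Circles are replicate number 1, triangles number 2 and bars the mean of 2 arrays. In every panel the 4 TGFbeta arrays lie above the 4 untreated arrays, with the widest gap, 3.95, in Prg4.

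For all 6 genes the 4 TGFbeta arrays lay above the 4 untreated arrays, as they did for 7.38% of all genes. Since the genes were chosen by that comparison, nothing is read from the count. The order of the 4 group levels was set by the treatment in each gene, while Major and Control of the same treatment changed places from gene to gene and had overlapping arrays in every gene. The 5-fold threshold of the choice corresponds to 2.32 log2 units, passed by 10 genes (0.0502% of all genes). The other 4 were the hyaluronan synthase gene Has2, the thrombospondin gene Thbs1, Lmcd1 and the syndecan gene Sdc3. By the smaller of its rises, Aldh1l1 (2.39) lay closest to the threshold, next to Sdc3 (2.40 in Major, 2.52 in Control), Lmcd1 (2.46 and 2.47) and Thbs1 (2.56 and 2.72). Just outside it lay Ctla2a (2.32 in Major, 2.27 in Control), the stress gene Gadd45a (2.26 and 2.41) and the claudin gene Cldn4 (2.25 and 2.26). Lmcd1 did not pass limma's test (adjusted p = 0.182 in Major and 0.185 in Control), and with the replicate number in the model its adjusted p was 0.000122 and 0.000107.

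**Figure D2:**
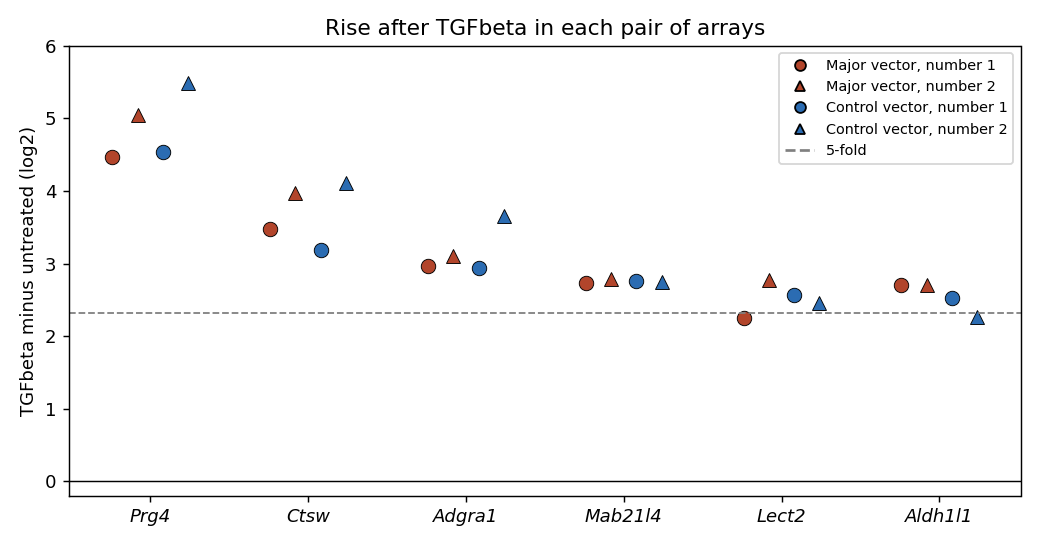
Log2 difference of TGFbeta minus untreated (vertical axis) for each gene in the 4 pairs of arrays of the same vector and replicate number. The dashed line marks 5-fold. Lect2 in Major number 1 (2.25) and Aldh1l1 in Control number 2 (2.26) lie below it, and Prg4 ranges from 4.47 to 5.49.

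The replicate numbers differed in level for most genes of the array, and 4 of the 6 genes took part. In limma with the replicate number as a term, 50.4% of all genes differed between the numbers, 17.3% with a higher and 33.1% with a lower level in number 2. Averaged over the groups, number 2 was lower than number 1 for Prg4 by a log2 difference of -0.71 ± 0.17 (adjusted p = 0.00841), for Aldh1l1 by -0.41 ± 0.08 (adjusted p = 0.00203) and for Mab21l4 by -0.26 ± 0.06 (adjusted p = 0.00472). Lect2 was higher in number 2 by 0.37 ± 0.10 (adjusted p = 0.0146). Adgra1 (0.20 ± 0.10, adjusted p = 0.137) and Ctsw (0.06 ± 0.14, adjusted p = 0.76) did not pass. A share of 4 in 6 is read against that 50.4%, and the numbers may stand for a day, a batch or a culture, which the labels do not say.

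The size of the rise also differed between the replicate numbers in some of the genes, and is described without a test because the same rises chose the genes. The rises of Prg4, Ctsw and Adgra1 were larger in number 2 than in number 1 in both vectors. Prg4 was higher after TGFbeta by 5.05 in number 2 and 4.47 in number 1 in Major cells, and by 5.49 and 4.54 in Control cells. Ctsw differed by 3.97 in number 2 and 3.47 in number 1 in Major cells, and by 4.11 and 3.18 in Control cells. Adgra1 differed by 3.11 in number 2 and 2.97 in number 1 in Major cells, and by 3.65 and 2.94 in Control cells. Lect2 and Mab21l4 had the larger rise in number 2 in Major cells and in number 1 in Control cells. Aldh1l1 had 2.71 in both numbers in Major cells, and 2.26 in number 2 and 2.52 in number 1 in Control cells. Over both vectors the rise in number 2 exceeded that in number 1 by 0.77 for Prg4, 0.72 for Ctsw, 0.43 for Adgra1, 0.20 for Lect2 and 0.02 for Mab21l4, and by -0.13 for Aldh1l1.

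Whether the satellite vector changed these genes was asked with the mean of the treated and untreated differences, a comparison independent of the rises that chose them. None of the 6 genes passed. In this comparison limma called 0.01% of all genes, which were Kcnma1, a potassium channel gene (-7.13 ± 0.22, adjusted p = 0.000418), and Gm7982 (-2.76 ± 0.19, adjusted p = 0.0363), both lower in Major. Unadjusted p lay under 0.05 for 110 genes, and for none of the 6, where it ran from 0.55 to 0.946. This model counts the difference between replicate numbers as spread, so it calls few genes. In limma with the replicate number, unadjusted p lay under 0.05 for 1071 genes. For the 6 it then ran from 0.311 (Aldh1l1) to 0.881 (Mab21l4). The Major minus Control difference was -0.13 ± 0.35 for Prg4, with a 95% confidence interval of 0.51-fold to 1.63-fold. It was -0.05 ± 0.17 for Ctsw (0.73-fold to 1.27-fold), -0.09 ± 0.14 for Adgra1 (0.74-fold to 1.19-fold) and 0.01 ± 0.13 for Mab21l4 (0.82-fold to 1.24-fold). For Lect2 it was -0.03 ± 0.19 (0.72-fold to 1.34-fold) and for Aldh1l1 -0.08 ± 0.18 (0.70-fold to 1.28-fold). In the model with the replicate number the intervals narrowed, to 0.69-fold to 1.20-fold for Prg4 and 0.92-fold to 1.10-fold for Mab21l4, and none of the 6 passed, against 0.0853% of all genes.

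**Figure D3:**
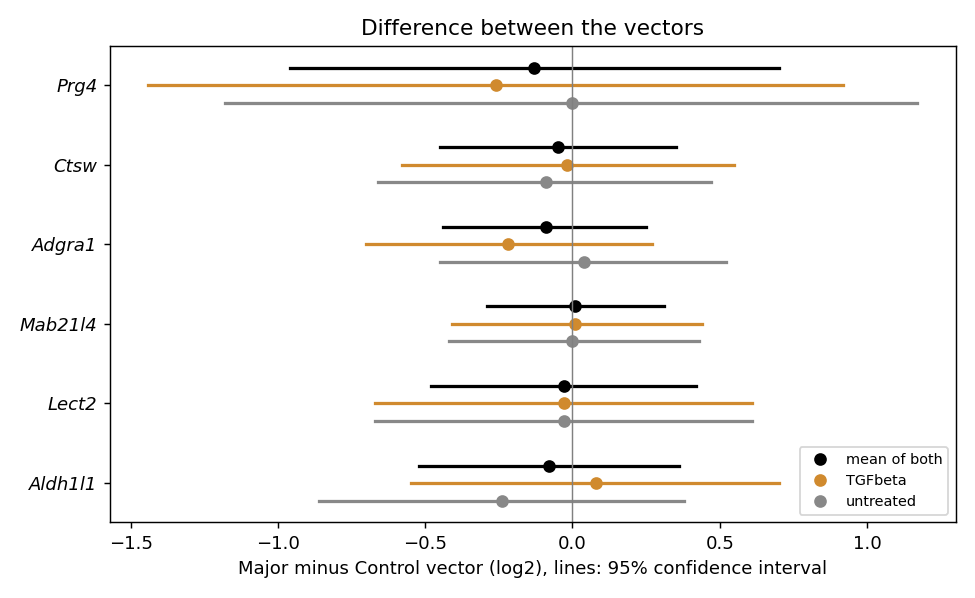
Major minus Control log2 difference (horizontal axis) of each gene as the mean of both treatments, with TGFbeta and untreated. Points are limma estimates and lines 95% confidence intervals. All intervals include 0, and those of Prg4 are the widest.

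Within each treatment the vectors were also compared, although these comparisons share arrays with the rises. With TGFbeta the differences ran from -0.26 (Prg4) to 0.08 (Aldh1l1), and none of the 6 passed, against 0.00502% of all genes. In untreated cells they ran from -0.24 (Aldh1l1) to 0.04 (Adgra1), again with none passing against 0.00502% of all genes. The 1 gene called in each was Kcnma1. In the model with the replicate number none of the 6 passed in either comparison, against 0.0301% of all genes in each. In that model the untreated difference of Aldh1l1 had a 95% confidence interval of -0.48 to 0.00. The response in Major minus that in Control is built from the rises used for the choice and is given without a test. Over all genes limma called 0.0% with either model, and 44 genes had an unadjusted p under 0.05 (658 with the replicate number). It was -0.26 for Prg4 (95% confidence interval -1.92 to 1.41), 0.08 for Ctsw (-0.72 to 0.88), -0.25 for Adgra1 (-0.94 to 0.44) and 0.01 for Mab21l4 (-0.60 to 0.61). For Lect2 it was 0.00 (-0.90 to 0.90), and for Aldh1l1, whose rise was the larger in Major cells, 0.31 (-0.57 to 1.19). With the replicate number the interval narrowed, to -1.05 to 0.54 for Prg4 and -0.03 to 0.65 for Aldh1l1.

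For each of the 6, the most similar profiles were sought among genes outside the 6, without predicted loci and small RNA genes. The 6 were not compared with each other here. Likeness was the root mean square difference over the 8 arrays, after each profile was centred on its own mean. Has2 was nearest to Prg4 (0.93 log2 units), Ctsw (0.29) and Adgra1 (0.26). Sdc3 was nearest to Mab21l4 (0.21) and Aldh1l1 (0.18), and Gadd45a to Lect2 (0.15). Thbs1 came among the nearest 3 of Prg4 (1.15), Ctsw (0.56), Adgra1 (0.39) and Mab21l4 (0.27). Lmcd1 (1.24) completed the list for Prg4, Sdc3 (0.69) that for Ctsw and Gadd45a (0.43) that for Adgra1. Ctla2a, which encodes an inhibitor of cathepsin-like proteases and has a closely similar copy that may share its signal, was near Mab21l4 (0.27) and Aldh1l1 (0.22), and the integrin gene Itga5 near Aldh1l1 (0.23). Lect2 had Ldlrad4, a Smad pathway inhibitor (0.26), and the ubiquitin ligase gene Fbxo32 (0.30) next. The profiles were not scaled, so this measure mostly follows the size of the rise, which chose the 6 genes. Genes with a similarly large rise therefore come out as nearest by construction, and nothing more is read from them. A larger rise places a gene far from these others, as Prg4 shows.

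The genes beside the 6 on their chromosomes were tested for TGFbeta differences, since they had no part in the choice. Of 36 neighbours, 3 measured genes on each side, 2 rose and 0 fell in each vector, where 0.682% of all genes rose and 0.411% fell in Major cells and 0.707% rose and 0.366% fell in Control cells. The neighbours' median log2 difference was 0.11 in Major and 0.05 in Control cells, against 0.03 and 0.01 over all genes. Sned1, which encodes an extracellular matrix protein, is the second gene on one side of Mab21l4 on chromosome 1. It stood at 8.95 and 9.37 in Major TGFbeta arrays and 9.04 and 9.35 in Control TGFbeta arrays, against 7.93 and 7.76 in Major untreated and 8.05 and 7.89 in Control untreated arrays. No TGFbeta array overlapped an untreated one, and Sned1 rose by 1.31 ± 0.19 in Major (adjusted p = 0.0391) and 1.23 ± 0.19 in Control cells (adjusted p = 0.045). Crocc2, which lies between them, differed by 0.42 ± 0.25 in Major and 0.43 ± 0.25 in Control cells and did not pass (adjusted p = 0.78 and 0.835, and 0.0386 and 0.0375 with the replicate number).

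Slc41a3, of the magnesium transporter family, is the next gene to Aldh1l1 on chromosome 6. Its level was 9.70 and 9.46 in Major TGFbeta arrays and 9.90 and 9.77 in Control TGFbeta arrays, against 8.67 and 8.81 in Major untreated and 8.68 and 8.68 in Control untreated arrays. The treatments again did not overlap, and Slc41a3 rose by 0.84 ± 0.13 in Major (adjusted p = 0.0468) and 1.15 ± 0.13 in Control cells (adjusted p = 0.0185). The calls of Sned1 and that of Slc41a3 in Major cells are close to the threshold. In Control cells Slc41a3 also passed after quantile normalization (adjusted p = 0.0426) and with every probeset as a feature (0.0209). Over the alternative runs Sned1 stayed between 1.10 and 1.52 in Major and between 1.07 and 1.38 in Control cells. Slc41a3 stayed between 0.72 and 0.95 in Major and between 1.09 and 1.22 in Control cells. The calls of both genes, like nearly all calls over all genes, nevertheless needed every array of the vector compared. Leaving out any 1 array of the vector compared ended both, with adjusted p from 0.11 to 0.278 for Sned1 and 0.192 to 0.26 for Slc41a3 in Major cells, and 0.137 to 0.301 and 0.0974 to 0.155 in Control cells. Leaving out an array of the other vector gave 0.063 to 0.092 for Sned1, 0.0944 to 0.0998 for Slc41a3 in Major and 0.0456 to 0.0522 in Control cells. Quantile normalization ended those of Sned1 (adjusted p = 0.0673 in Major and 0.0725 in Control) and that of Slc41a3 in Major cells (0.11), and every probeset as a feature that of Sned1 in Control (0.0503) and of Slc41a3 in Major cells (0.0519). Under the model with the replicate number, adjusted p was 0.000533 and 0.000717 for Sned1 and 0.000794 and 0.000146 for Slc41a3.

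**Figure D4:**
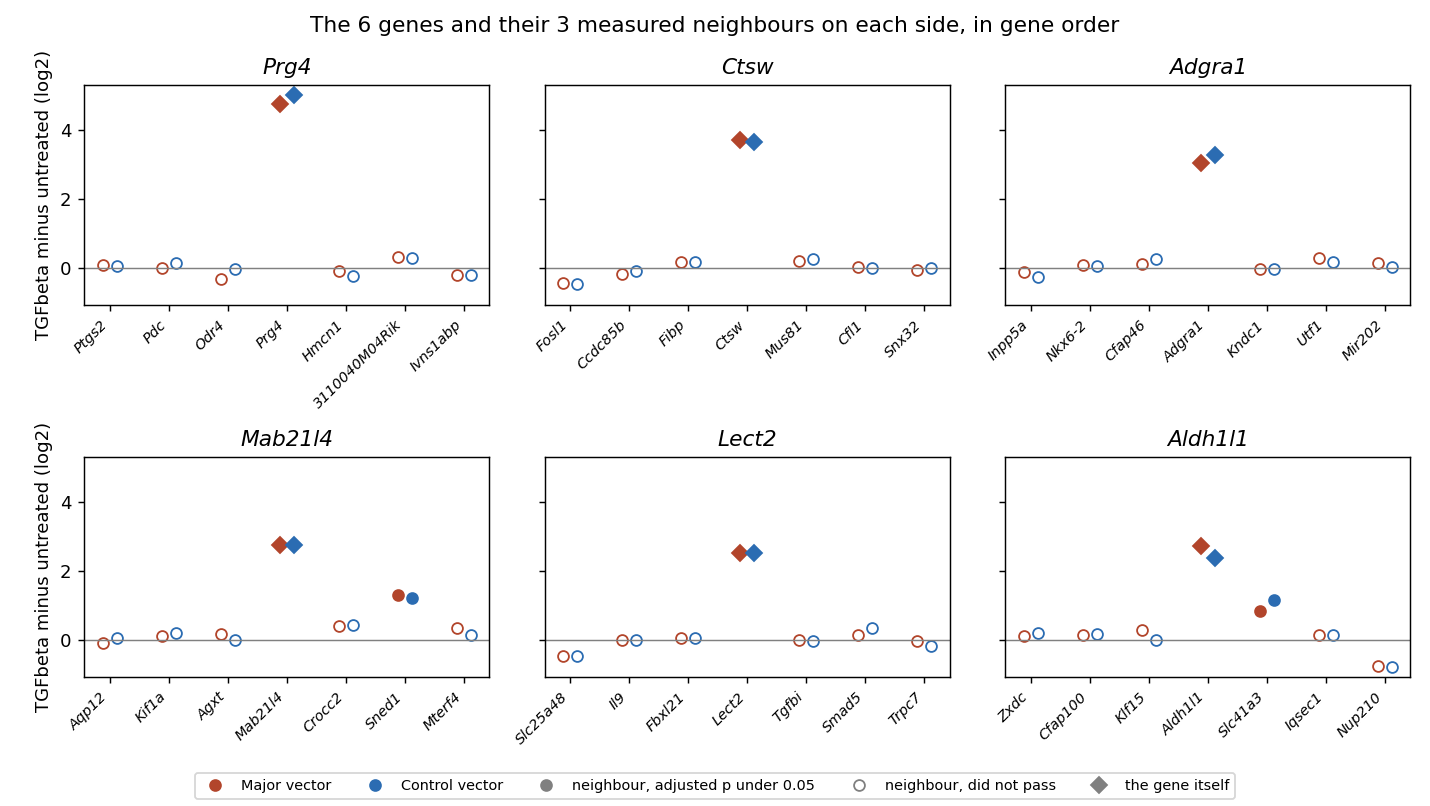
TGFbeta minus untreated log2 difference (vertical axis) of each gene (diamonds) and its 3 measured neighbours on each side (circles) in gene order. Filled circles passed at an adjusted p under 0.05. Sned1 beside Mab21l4 and Slc41a3 beside Aldh1l1 passed in both vectors, and the other neighbours lie between -0.78 and 0.43.

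The remaining 34 neighbours did not pass in either vector. Fibp, which overlaps Ctsw in the RefSeq annotation, differed by 0.18 ± 0.13 in Major and 0.19 ± 0.13 in Control cells, and Fbxl21, which overlaps Lect2, by 0.06 ± 0.15 and 0.07 ± 0.15. Fosl1, an AP-1 gene near Ctsw, differed by -0.43 ± 0.36 and -0.44 ± 0.36, and passed only with the replicate number (adjusted p = 0.0149 and 0.0127). Next to Lect2 lies Tgfbi, a matrix protein gene named for its induction by TGFbeta, which differed by 0.01 ± 0.27 and -0.02 ± 0.27 (adjusted p = 0.999 and 1). Ptgs2, the prostaglandin synthase gene near Prg4, differed by 0.10 ± 0.58 and 0.06 ± 0.58. That model gave 3 neighbours that rose and 4 that fell in Major cells, and 4 that rose and 3 that fell in Control cells. Sned1, Slc41a3 and Crocc2 rose in both vectors and Smad5 in Control, and Fosl1, Slc25a48 and Nup210 fell in both and Odr4 in Major. Over all genes 6.89% rose and 8.38% fell in Major and 6.92% rose and 7.63% fell in Control cells in that model.

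Known TGFbeta/Smad target genes are drawn first in the plot of the gene lists. Of 26 measured, 9 rose and 0 fell in Major cells and 11 rose and 0 fell in Control cells, where 0.682% and 0.707% of all genes rose. Their median log2 differences were 1.03 and 1.05, against 0.03 and 0.01 over all genes. In the model with the replicate number 21 rose in Major and 23 in Control cells, where 6.89% and 6.92% of all genes did, and 0 fell. The list was written with results of these arrays known and is not independent evidence of its direction. Leaving out 1 array of the vector compared ended nearly all calls over all genes. The calls in these lists therefore need the arrays of that vector together. Rhob, a small GTPase gene, rose by 1.46 ± 0.13 in Major (adjusted p = 0.0126) and 1.95 ± 0.13 in Control cells (adjusted p = 0.00834), Bhlhe40 by 1.85 ± 0.17 (0.0132) and 1.77 ± 0.17 (0.014), and Has2 by 3.29 ± 0.25 (0.00959) and 3.08 ± 0.25 (0.0108). Of these 26 targets only Has2 lay above the 5-fold mark in both vectors.

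Relatives and partners of the 6 genes were tested as further lists. Among 16 measured partners and relatives of lubricin, Has2 rose in both vectors. Fn1, the fibronectin gene, rose in Control cells (0.88 ± 0.14, adjusted p = 0.048) and was 0.73 ± 0.14 in Major cells (adjusted p = 0.0857). Over all genes 0.682% rose in Major and 0.707% in Control cells. Has2 and Fn1 are also in the list of TGFbeta/Smad targets, so their calls are not separate from it. Ctsb, Ctsg, Ctsl and Ctss are shared with the list of cathepsins and cystatins. The median of the lubricin list was 0.21 in Major and 0.19 in Control cells, and with the replicate number 6 members rose in Major and 7 in Control cells (6.89% and 6.92% of all genes) and 1 fell in each (8.38% and 7.63% of all genes). The lubricin receptor gene Cd44 differed by 0.34 ± 0.12 and 0.56 ± 0.12 and passed only in that model (adjusted p = 0.0224 and 0.00178). Of 18 cathepsins and cystatins, Ctse rose in Control cells (1.06 ± 0.14, adjusted p = 0.0276), and its value in Major cells was 0.84 ± 0.14 (adjusted p = 0.0557, and 0.000884 with the replicate number). The cystatin gene Cst6 differed by 0.24 ± 0.22 and 0.52 ± 0.22 and passed only with the replicate number, in Control cells (adjusted p = 0.0192). No other member passed in either model, and the medians were 0.09 and 0.12. Ctsf, the cathepsin closest to cathepsin W in its family, differed by 0.08 ± 0.13 in Major and 0.19 ± 0.13 in Control cells.

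None of 27 adhesion G protein-coupled receptors passed, with medians of 0.11 in Major and 0.01 in Control cells. Adgra2 and Adgra3, the nearest relatives of Adgra1, differed by -0.07 ± 0.18 and 0.11 ± 0.10 in Major and by -0.18 ± 0.18 and 0.22 ± 0.10 in Control cells. Under the model with the replicate number 2 rose and 4 fell in Major and 4 rose and 2 fell in Control cells, where 6.89% and 6.92% of all genes rose and 8.38% and 7.63% fell. Among them were Adgrg1 (0.77 and 0.60) and Adgrg6 (-0.97 and -0.93). None of 10 Mab21 family genes passed (medians -0.05 and -0.09). Mab21l1 differed by 0.07 ± 0.16 and 0.06 ± 0.16 and Mab21l2 by -0.03 ± 0.15 and -0.14 ± 0.15, whereas Mab21l3 was lower by -0.76 ± 0.13 and -0.78 ± 0.13 and passed only with the replicate number (adjusted p = 0.000638 and 0.000553), as did Cgas (-0.53 and -0.47, adjusted p = 0.00353 and 0.00648).

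The lists of enzymes related to Aldh1l1 had medians below 0. None of 17 folate and one-carbon genes passed, with medians of -0.35 in Major and -0.28 in Control cells. In the model with the replicate number 2 rose and 9 fell in Major and 2 rose and 7 fell in Control cells, where 8.38% and 7.63% of all genes fell and 6.89% and 6.92% rose. Shmt1, a serine hydroxymethyltransferase, was among those that fell in that model (-1.26 in Major, -1.41 in Control), and the folate transporter gene Slc46a1 (1.17 and 1.32) and the glycine cleavage gene Gldc (0.92 and 0.88) were those that rose. Aldh1l2, the mitochondrial counterpart of Aldh1l1, differed by 0.27 ± 0.11 and -0.08 ± 0.11 and passed in neither model. Of 18 aldehyde dehydrogenase genes 0 passed, with medians of -0.17 and -0.16, and with the replicate number 0 rose in either vector, 8 fell in Major and 6 fell in Control cells, against the same 8.38% and 7.63% of all genes that fell. Of 6 receptors of Lect2 and related secreted factors, 0 passed (medians -0.02 and 0.06), and the receptor gene Met differed by -0.70 ± 0.17 and -0.34 ± 0.17. With the replicate number Met fell in Major cells (adjusted p = 0.00364) and did not pass in Control cells (0.0882). Counts at an adjusted p under 0.05 of 0 in these lists stand beside 1937 genes with an unadjusted p under 0.05 in Major and 1863 in Control cells. Genes named in this paragraph and the one before it were chosen by kinship or after their values were seen.

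**Figure D5:**
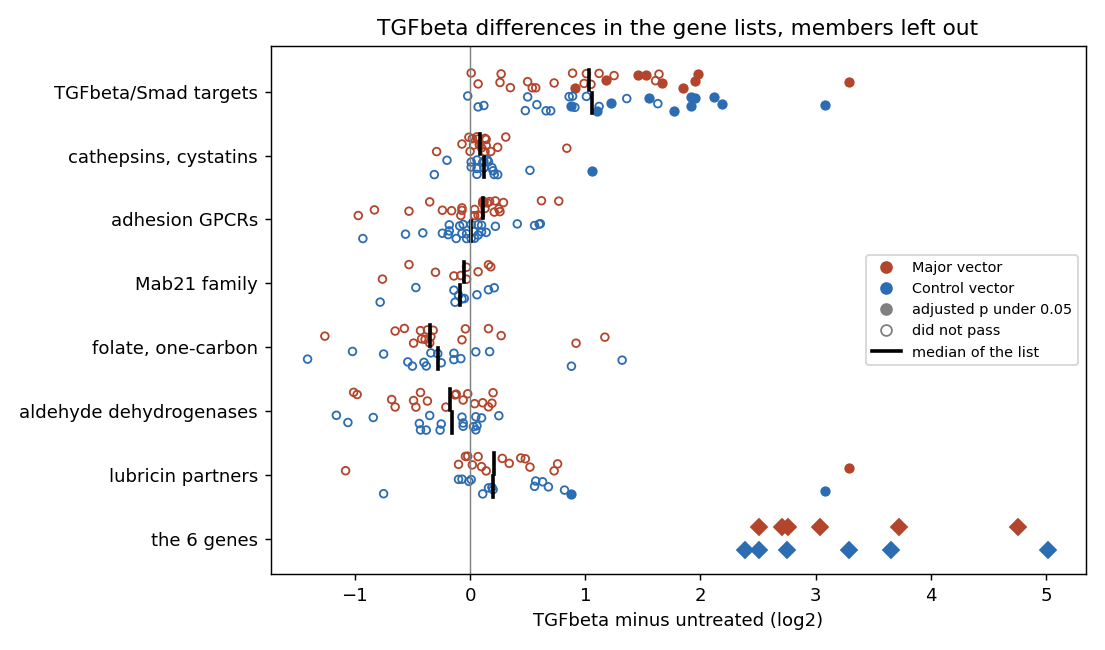
TGFbeta minus untreated log2 difference (horizontal axis) of each measured gene in 7 gene lists, the 6 genes left out of the lists and drawn as diamonds at the bottom. Filled points passed at an adjusted p under 0.05, and bars are list medians, which are highest for the TGFbeta/Smad targets (1.03 in Major, 1.05 in Control).

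Several of the 6 genes are best known from cells other than epithelium, so markers of those cells were read in the same arrays. Differentiation markers of keratinocytes, an epithelial cell type, were read beside them. None of 18 cytotoxic lymphocyte, 16 hepatocyte, 16 synovial and cartilage, 14 neuron and astrocyte and 12 keratinocyte differentiation markers passed in either vector, with medians between -0.08 and 0.10. Summed on the linear scale, lymphocyte markers ran from 1749 to 2040 in the 4 TGFbeta arrays and from 1705 to 1983 in the 4 untreated arrays. Synovial and cartilage markers ran from 2382 to 2875 with TGFbeta and from 2254 to 2810 untreated, and neuron and astrocyte markers from 1629 to 1961 and from 1567 to 1871. Hepatocyte markers ran from 20070 to 23750 with TGFbeta and from 22901 to 30494 untreated, and with the replicate number 5 fell in Major and 4 in Control cells, against 8.38% and 7.63% of all genes. In that model 3 other markers passed, each in 1 vector. The cartilage collagen gene Col11a1 (0.36 ± 0.15, adjusted p = 0.0196) and the tubulin gene Tubb3 (0.31 ± 0.33, adjusted p = 0.0423) rose in Major cells, and the lymphocyte receptor gene Ncr1 (0.35 ± 0.21, adjusted p = 0.0281) in Control cells, where the errors are those without the replicate number. Keratinocyte markers ran from 22473 to 25764 with TGFbeta and from 24026 to 29839 untreated. No list's sum was higher in all TGFbeta arrays than in all untreated arrays. The deposited values carry no detection call, so which of these markers were at background was not told. Of the 10 epithelial markers 0 passed, with Cdh1 between 12.72 and 12.85 in Major TGFbeta and 12.74 and 13.11 in Control TGFbeta arrays, against 12.82 and 13.07 in Major untreated and 12.84 and 13.16 in Control untreated arrays, and Krt8 between 14.19 and 14.42 in all 8. Epcam ran from 6.53 to 7.16 in the 8 arrays. With the replicate number the keratin gene Krt19 fell in Major (-0.72, adjusted p = 0.00062) and Control cells (-0.76, adjusted p = 0.000469), and the tight junction gene Ocln fell in Major cells (-0.47, adjusted p = 0.0456) and differed by -0.20 in Control cells (adjusted p = 0.415). Their part in the rises of the 6 genes was not tested. In bulk RNA, more cells with a transcript and more transcript per cell cannot be told apart.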

How the data were processed

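The deposited table holds log2 values for each probeset in 8 arrays, as the authors left them. The submitters' processing notes name RMA, a method that corrects background, normalizes by quantiles and summarises probes, and limma, and versions and genome build are not given in the sources used here. Array medians were 7.88 to 7.92 for replicate number 2 and 7.72 to 7.76 for number 1, and no 2 arrays held identical values. Of 34760 probesets, 21640 had 1 gene symbol, 1321 several and 11799 were not in the platform table. Symbols were updated through Entrez identifiers with RefSeq (GRCm38.p6; 19855 of 19937 genes matched), which also gave gene order. For 954 genes with several probesets, the one with the highest mean was used.

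All 8 arrays entered 1 linear model (limma 3.58.1, R 4.3.3) with 1 mean per group and 4 residual degrees of freedom, two-sided, with Benjamini-Hochberg adjustment over all genes and a threshold of 0.05. The fit was tested on simulated data whose spread was independent in each array. That test does not cover a difference shared by arrays of the same replicate number. Same-numbered arrays deviated from their group means together (r = 0.758 to 0.874 across genes, which are not independent replicates), so the model with the replicate number (3 residual degrees of freedom) is given where it changes a call. The comparison of levels between replicate numbers was added after the data were seen. Alternatives were the replicate number, quantile normalization, leaving out the lowest 25% of genes, every probeset as a feature, and leaving out each array. The number of arrays limits the precision.

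The 6 genes, the 14 gene lists and the tests were chosen with earlier results of these data known. Named genes were the 6, their 3 most similar genes outside the 6, passing neighbours, up to 3 passing genes per list and those nearest the 5-fold mark. Other genes named were chosen by kinship or after their values were seen. Some list members were not analysed here.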

Additional observations from a re-analysis of the deposited data

Results flagged for a closer look

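Outside the gene comparisons, 13120 probesets had no single gene symbol, and 3 of them stood above 5-fold in both vectors, as the 6 genes did. Probeset 10471154 was 3.26 log2 units higher after TGFbeta in Major and 3.31 in Control cells, with a smallest rise over the 4 pairs of 3.12. Probeset 10363541 was 3.23 higher in Major and 3.27 in Control cells (smallest of 4 pairs 2.78), and probeset 10471555 was 2.48 higher in each (smallest 2.41). They are flagged because the comparisons left them out. Their genes are unnamed here, and they were not tested.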

How the results depend on the processing

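The number of genes that passed depended on the model. With the replicate number, 3044 genes passed for TGFbeta in Major cells (218 without it) and 2901 in Control cells (214 without it), 17 for the mean vector difference (2 without it) and 6 each for the vector difference with TGFbeta and untreated (1 without it). After quantile normalization 84 genes passed for TGFbeta in Major cells and 108 in Control cells, and with every probeset as a feature 5 passed for the mean vector difference. Leaving out 1 array gave 0 to 82 genes for TGFbeta in Major cells, 0 to 89 in Control cells, 1 to 2 for the mean vector difference and 0 to 1 for the vector difference with TGFbeta and untreated. The count for the difference between responses was 0 in each alternative. The cause was not tested, except that fewer arrays leave fewer degrees of freedom. The replicate number (block) changed none of the vector calls of the 6 genes.

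The rises of the 6 genes kept their direction in each alternative run, between 4.41 and 5.11 in Major and 4.27 and 5.76 in Control cells for Prg4. Leaving out 1 array took Lect2 in Major cells to 2.11 and Aldh1l1 in Control cells to 2.07, under 5-fold. In the vector comparisons 0 of 216 alternative values of the 6 genes passed (lowest adjusted p 0.787), and 39 had the other sign, up to 0.74 for Prg4 untreated without Control untreated replicate 1. Quantile normalization gave 0.02 for Prg4 untreated, 0.00 for Mab21l4 as the mean and -0.01 for Mab21l4 with TGFbeta. Leaving out 1 array gave these ranges for the mean vector difference: Prg4 -0.51 to 0.24, Ctsw -0.18 to 0.07, Adgra1 -0.23 to 0.05, Mab21l4 -0.07 to 0.09, Lect2 -0.23 to 0.17, Aldh1l1 -0.24 to 0.08. With TGFbeta they were Prg4 -0.53 to 0.01, Ctsw -0.24 to 0.21, Adgra1 -0.49 to 0.06, Mab21l4 -0.12 to 0.14, Lect2 -0.43 to 0.37, Aldh1l1 -0.25 to 0.40. Untreated they were Prg4 -0.75 to 0.74, Ctsw -0.34 to 0.15, Adgra1 -0.04 to 0.11, Mab21l4 -0.15 to 0.16, Lect2 -0.17 to 0.10. Aldh1l1 untreated, at -0.43 to -0.04, kept its sign. Quantile normalization moved the median of all genes between replicate numbers to -0.22, against -0.08 as deposited. It changed no level call of the 6 genes between replicate numbers, with Lect2 at 0.27 (adjusted p = 0.0441). The rise in number 2 then exceeded that in number 1 by 1.02 for Prg4, 0.93 for Ctsw and 0.69 for Adgra1. For Lect2 this was 0.27, for Mab21l4 0.09 and for Aldh1l1 -0.04. Fn1 in Control cells did not pass after quantile normalization (adjusted p = 0.085) or with every probeset (0.0534, range over its alternatives 0.000446 to 0.306).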
